A study of Mus musculus with 2 samples.

Results

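Notch signalling was examined through 10 genes, the receptors Notch1, Notch2, Notch3 and Notch4, the ligands Jag1, Jag2 and Dll1, and the target genes Hes1, Hey1 and Heyl. A probe set (the group of short array oligonucleotides that reads a transcript) was taken when its gene symbol equalled a listed gene or held it as 1 of several, which gave 20 probe sets of the 45101 in the deposited table. Each of the 20 named a listed gene alone, and all 10 genes were read, of 20679 genes in all. The arrays compared 2 cultured lines labelled S1 and S2, with 1 sample each, both derived by sorting from KALLU, a lung squamous cell carcinoma (SCC) line of mice with the kinase-dead Ikkα knock-in on both alleles (KA/KA, FVB background). S1 is described as high in Sca1 and more tumorigenic and was read as KALLU+ (sorted as Sca1 high, CD24 negative), and S2 is described as low in Sca1 and less tumorigenic and was read as KALLU- (Sca1 low, CD24 positive). Both lines were grown in serum-containing medium without a treatment, so the Ikkα mutation and the parental line are shared, and no array of a line without the mutation was analysed here.

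Notch receptors are single-pass membrane proteins that are switched on by a ligand of the Delta or Jagged family on a neighbouring cell. The bound ligand is pulled into its own cell, an ADAM protease and then γ-secretase cut the receptor, and the freed intracellular part joins the DNA-binding protein RBPJ to turn on targets such as the HES and HEY repressors. In stratified and airway epithelium the pathway is known for steering basal cells toward differentiation, and loss-of-function changes of Notch receptors are known in squamous carcinomas.

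The deposited value is the authors' fold change of S1 over S2, signed so that a negative value means lower in S1, and it is given here also on the log2 scale with its sign. The table holds no signals, no spread and no p-values, so each value below is 1 number per probe set with no replicate check, no test between the lines was possible, and the brightness behind a value is unknown. Scatter was judged from genes of smell receptors (olfactory and vomeronasal), taken to be silent in such cells. Their 76 probe sets ran from -0.55 to 0.38 on the log2 scale, called the olfactory range here. It shows the scatter of genes taken to be silent and cannot gauge that of expressed genes. Of all genes 12.3% lay below it and 13.9% above. Genes were placed against it by their median, so single probe sets of a gene called inside can lie outside. Probe sets of 1 gene differed with a pooled SD of 0.49 on the log2 scale over 9609 genes. The sorting markers gave a mixed check of the labels: Cd24a had a median log2 fold change of -5.73 in S1, as its CD24-negative sort would have it, but Ly6a, which encodes Sca1, was at -2.57, against the label. Of 13 genes described as higher in KALLU+, a list drawn from these same arrays and so no independent check, 12 were above 0 in S1, with Sox2 at 7.27, Twist1 at 1.14 and Myc at 0.86 on the log2 scale, and Ube2c was at -0.07. Tnfrsf1a, whose protein TNFR1 is described as higher in KALLU+, was at -1.16. Directions below follow the titles S1 and S2 as deposited, and an exchange of the titles would turn every sign and each count of higher and lower. The poly-A controls, bacterial transcripts spiked into each RNA sample, had a median of -0.45 over 24 probe sets on the log2 scale. Centring on them raises every log2 value by the size of that median. The other references had smaller offsets, with medians of -0.14 over 18 hybridisation controls, -0.01 over the smell receptors and -0.02 over all probe sets.

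The promoter sequences of the 3 members with the clearest differences that RefSeq's promoter table (GRCm38.p6) holds, Notch1, Dll1 and Jag1, are shown first, with that of Hes5, a further Notch target, for contrast. Each run is the 250 bases before the annotated start, 5′ to 3′ on the strand of the gene. Notch1 lies at chr2:26503823-26504072 (minus strand), Dll1, by the more upstream of its annotated starts, at chr17:15376933-15377182 (minus strand), Jag1 at chr2:137116521-137116770 (minus strand) and Hes5 at chr4:154960673-154960922 (plus strand). Capitals mark matches on either strand to the RBPJ core (TGGGAA), to the N-box bound by HES proteins (CACNAG) and to the E-box bound by HEY proteins (CACGTG), and no match overlapped another in these runs.
Notch1: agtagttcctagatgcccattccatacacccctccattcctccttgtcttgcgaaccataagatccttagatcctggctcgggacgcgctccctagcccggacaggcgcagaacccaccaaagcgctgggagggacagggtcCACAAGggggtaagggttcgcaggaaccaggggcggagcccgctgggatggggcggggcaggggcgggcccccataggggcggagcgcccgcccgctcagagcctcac
Dll1: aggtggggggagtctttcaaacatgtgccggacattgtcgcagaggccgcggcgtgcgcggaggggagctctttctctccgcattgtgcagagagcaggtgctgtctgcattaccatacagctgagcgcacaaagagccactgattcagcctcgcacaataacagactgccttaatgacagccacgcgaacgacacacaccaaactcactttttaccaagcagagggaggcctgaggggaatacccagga
Jag1: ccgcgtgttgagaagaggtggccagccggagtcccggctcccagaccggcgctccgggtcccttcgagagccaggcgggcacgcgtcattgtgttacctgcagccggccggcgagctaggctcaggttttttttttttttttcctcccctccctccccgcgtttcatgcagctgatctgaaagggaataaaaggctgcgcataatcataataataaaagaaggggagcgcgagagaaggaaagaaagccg
Hes5: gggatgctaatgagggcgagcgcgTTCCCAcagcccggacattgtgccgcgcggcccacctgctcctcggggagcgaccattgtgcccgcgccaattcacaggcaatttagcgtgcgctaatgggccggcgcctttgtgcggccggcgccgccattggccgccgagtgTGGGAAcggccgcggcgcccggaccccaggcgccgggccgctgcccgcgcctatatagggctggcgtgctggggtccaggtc

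The 250-base window of Notch1 held 1 N-box at -108, counted back from the annotated start, and no other match. Those of Dll1 and Jag1 held none of the 3 motifs. Hes5 held the RBPJ core in opposite orientations at -226 and -82. The table matched 7 of the 10 members, with 8 starts, and not Hes1, Hey1 or Heyl. None of the 8 starts held the RBPJ core and 3 held an N-box, those of Notch1, Notch2 and Notch3, where 21.6% of all 32851 starts held the RBPJ core, 36.7% an N-box and 6.02% an E-box. Of the 66 starts of the other Notch pathway genes described below, 15 held the RBPJ core, 21 an N-box and 6 an E-box. A match is a stretch of letters and was not tested as a binding site.

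Of the 10 genes, 2 were at least 2-fold lower in S1 by the median over their probe sets, Notch1 and Dll1, and 0 were at least 2-fold higher. Over the whole array 5.08% of genes were at least 2-fold lower and 4.69% at least 2-fold higher. Set against the olfactory range, 3 members lay below it (Notch1, Dll1 and Hes1), 1 lay above it (Jag1) and 6 lay inside it, where 12.3% of all genes lay below and 13.9% above. The median of the 10 gene values was -0.25 on the log2 scale, against -0.04 over all genes, and 8 of the 10 were below 0, where 56.2% of all genes were. With the poly-A controls as the centre, only Notch1, Dll1 and Hes1, 3 of the 10, were below 0. Counted by probe set, 13 of the 20 were below 0 and 7 above, with 2 at least 2-fold lower and 0 at least 2-fold higher, beside 4.72% and 6.73% of all probe sets. With so few genes these shares describe the members only.

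**Figure D1:**
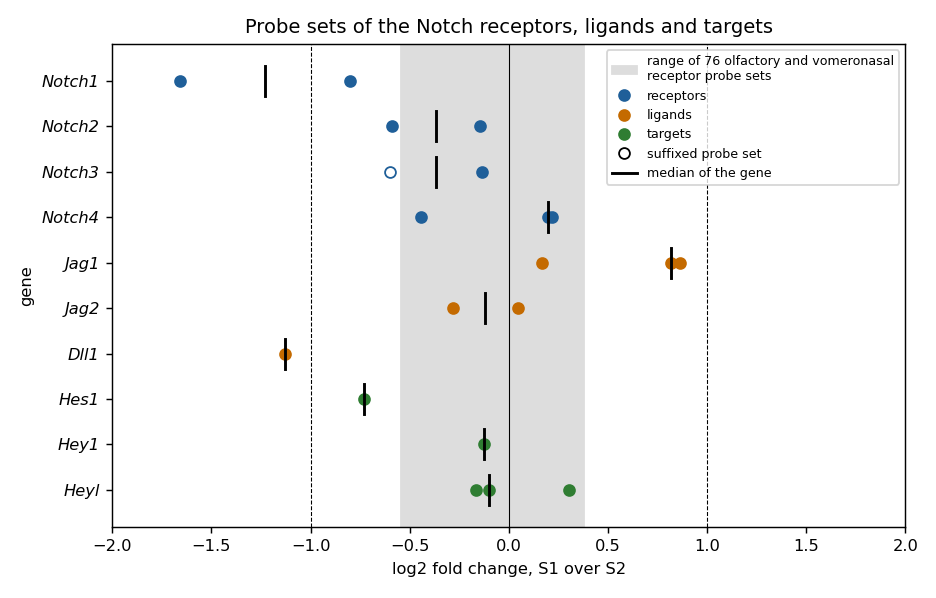
Log2 fold change of S1 over S2 (horizontal axis) for each of the 20 probe sets of the 10 genes (rows), coloured by role, with open points for suffixed probe sets, the gene median as a black bar, the 2-fold lines dashed and the olfactory range in grey. Both probe sets of Notch1 and the 1 probe set each of Dll1 and Hes1 lie left of the grey range, and 2 of the 3 probe sets of Jag1 lie right of it.

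Among the receptors, Notch1 differed most and in the same direction at both of its probe sets. Notch1, the receptor best known for driving differentiation in squamous epithelium, had a signed fold change of -3.16 at 1418634_at and of -1.74 at 1418633_at, log2 values of -1.66 and -0.80. The stronger probe set was lower than all but 1.97% of the 45101 probe sets, and the gene median of -1.23 was lower than all but 3.69% of genes. The probe sets were 0.86 apart on the log2 scale, more than the pooled SD, so the size of the difference is uncertain. Both read the same 1 sample per line, so their shared sign is no replicate check. Centred on the poly-A controls the gene value was -0.78, still below 0 but no longer past 2-fold.

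Notch2 and Notch3 were each slightly lower in S1 at both probe sets. Notch2, a broadly expressed receptor of epithelium, had signed fold changes of -1.51 and -1.11, a log2 median of -0.37. Notch3, known as the receptor of vascular smooth muscle and pericytes and also present in suprabasal epithelium, had signed fold changes of -1.51 and -1.10, also a log2 median of -0.37. Of the pair of probe sets of each gene, 1 lay below the olfactory range and 1 inside it, and for Notch3 the outer one carries the suffix _s_at, which marks probes shared with other transcripts. With the poly-A controls as the centre both medians were 0.08, so a direction for these genes depends on the scaling.

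Notch4, the receptor best known from endothelium, went both ways, with signed fold changes of -1.36, 1.15 and 1.16 at its 3 probe sets, each inside the olfactory range. Its log2 median was 0.20 as deposited and -0.44 by the probe set with the largest change. The order of the receptors by gene median was therefore Notch1 lowest, then Notch2 and Notch3 together, then Notch4, with the last 3 inside the olfactory range.

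The ligands were spread in both directions, with Jag1 higher and Dll1 lower in S1. Jag1, a Jagged-family ligand that activates Notch receptors on neighbouring cells, had signed fold changes of 1.12, 1.76 and 1.82, above 0 at each of 3 probe sets. The log2 median was 0.82, above 93.7% of genes and under 2-fold, and 2 of the 3 probe sets lay above the olfactory range. With the poly-A controls as the centre it was 1.26, past 2-fold. Dll1, a Delta-family ligand, was read by 1 probe set, 1419204_at, with a signed fold change of -2.18, a log2 value of -1.13, lower than all but 4.17% of genes. Centred on the poly-A controls it was -0.68, below 0 and short of 2-fold. Jag2, the other Jagged ligand and one found in basal epithelial cells, had signed fold changes of -1.22 and 1.03, which lie on either side of 0 and inside the olfactory range, and its log2 median turned from -0.12 to 0.33 on the poly-A controls. The gene values of Jag1 and Dll1 were thus on opposite sides of that range, and neither direction was turned by any scaling tried.

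Of the targets, 1 was lower beyond the olfactory range and 2 were not. Hes1, a basic helix-loop-helix repressor and the most widely used readout of Notch activity, had a signed fold change of -1.66 at its 1 probe set, 1418102_at, a log2 value of -0.73, lower than all but 8.41% of genes and under 2-fold. Centred on the poly-A controls it was -0.28. Hey1, a related repressor known from vessels and heart, had a signed fold change of -1.09 at its 1 probe set. Heyl, another HEY gene, known from smooth muscle, had signed fold changes of -1.12, -1.07 and 1.24 at its 3 probe sets, a log2 median of -0.10. Hey1 and Heyl lay inside the olfactory range, and with the poly-A controls as the centre their log2 values were 0.32 and 0.35.

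**Figure D2:**
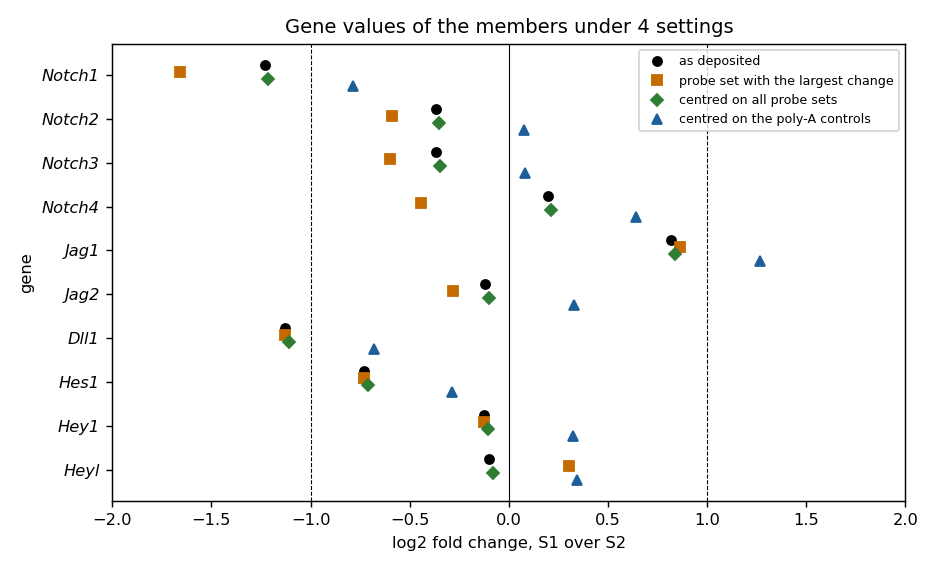
Log2 fold change of S1 over S2 (horizontal axis) of each of the 10 genes (rows) as deposited, by the probe set with the largest change, centred on all probe sets and centred on the poly-A controls, with dashed lines at 2-fold. Notch1 and Dll1 stay left of 0 and Jag1 right of 0 under each setting drawn, while Notch1 and Dll1 cross back over the 2-fold line and Jag1 crosses beyond it on the poly-A controls.

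Centring on the poly-A controls changed which members passed 2-fold, and centring on all probe sets did not. With the poly-A controls as the centre, 0 members were at least 2-fold lower and 1, Jag1, was at least 2-fold higher, and over the whole array the shares were then 2.82% lower and 9.92% higher. The difference between any pair of members does not depend on that choice. Notch1 and Dll1 stayed lower relative to Jag1 by 2.05 and 1.95 on the log2 scale, and Hes1 by 1.55.

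The genes around a member were read for a local difference, using only the order of genes in RefSeq's table. The 10 nearest measured genes of Notch1, 5 on each side, ran from -0.82 to -0.03 on the log2 scale with a median of -0.33. All of them were below 0, where 56.2% of all genes were, and none was 2-fold lower. Those of Dll1 had a median of -0.24, with 1 of the 10 at least 2-fold lower, Thbs2 at -2.69, which was named after its value was seen. Those of Hes1 ran from -0.36 to 0.31 and those of Jag1 from -1.89 to 1.62, with medians of -0.03 and -0.11. Whether the neighbours and Notch1 share a cause was not tested.

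The rest of the pathway was read through 61 further genes in 8 groups, of which 60 were measured and Maml3 was not named by any probe set. Of the 60, 4 were at least 2-fold higher in S1 (Dlk2, Aph1b, Mib1 and Hdac2) and 1 was at least 2-fold lower (Tle2), which is 6.67% and 1.67% beside the shares of all genes given above. Centred on the poly-A controls the counts were 8 higher and 0 lower, and without suffixed probe sets 2 higher (Aph1b and Mib1) and 0 lower. As deposited, the median of the 60 was -0.06 on the log2 scale, near that of all genes. Of the 60, 43 lay inside the olfactory range, 12 above it and 5 below, beside 13.9% of all genes above and 12.3% below. Those below were Aph1a and Tle2, described further on, with Poglut1, which glucosylates the receptor, at -0.58, the corepressor Spen at -0.55 and Dtx4, of the Deltex family of Notch regulators, at -0.59. Besides the genes described further on, Cir1 at 0.43, Ctbp2 at 0.58, both corepressors, and Dtx3l at 0.46 lay above the range.

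**Figure D3:**
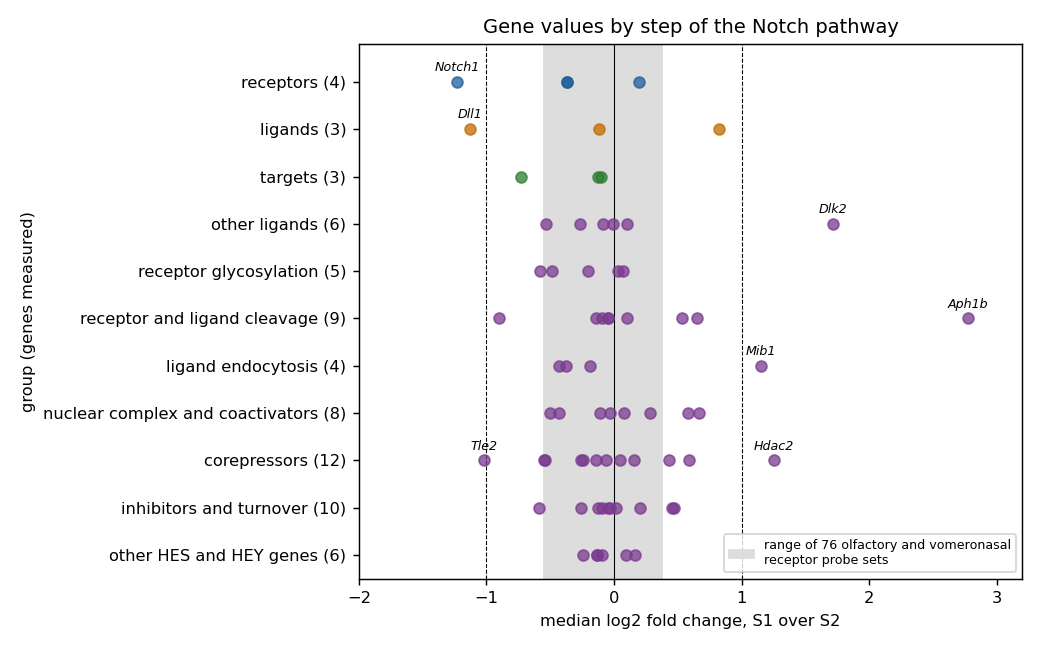
Gene values (median log2 fold change of S1 over S2, horizontal axis) by step of the Notch pathway, with 1 point per gene, the number of genes measured in each group in brackets, dashed lines at 2-fold and the olfactory range in grey. Genes past 2-fold are named, and Aph1b at 2.77 lies farthest from 0.

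The genes that cut the receptor held the gene with the widest difference in the pathway. Aph1b, which encodes 1 of the alternative APH1 subunits of γ-secretase, had signed fold changes of 5.74 and 8.14 at the probe sets that name it alone, a log2 median of 2.77, higher than 99.7% of genes. A further probe set, which names Aph1b together with its near-identical copy Aph1c, had a signed fold change of 1.68, so how the copies share this difference is uncertain. Aph1a, the alternative subunit, was below 0 throughout, at -2.01, -1.87 and -1.32 as signed fold changes over 3 probe sets, a log2 median of -0.90. Aph1b and Aph1a were 3.68 apart on the log2 scale, and this gap is not altered by centring. Ncstn and Psenen, which encode further subunits of γ-secretase, lay inside the olfactory range, with log2 medians of 0.10 and -0.05. The probe sets of Ncstn disagreed in sign, at -0.41 and 0.61, the latter above the range.

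The proteases that make the first cut were higher by less than 2-fold at each of their probe sets. Adam10, the main sheddase of ligand-bound Notch, had signed fold changes from 1.22 to 1.93 at 4 probe sets and a log2 median of 0.53. Adam17, which also sheds TNF, had signed fold changes from 1.46 to 1.59 at 3 probe sets and a log2 median of 0.65, or 1.09 on the poly-A controls. Furin, which processes the receptor on its way to the surface, was at -0.05. Adam10, Adam17 and Furin were named after their values were seen.

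Ligand endocytosis and the atypical ligands each had 1 gene past 2-fold. Mib1, the ubiquitin ligase that lets a ligand be pulled into its cell, had signed fold changes of 1.33, 2.22 and 3.67, a log2 median of 1.15, while Mib2, Neurl1a and Neurl1b, which act at the same step, lay inside the olfactory range. Dlk2, a Delta-like protein without the usual receptor-activating domain, had signed fold changes of 2.93 and 3.69, a log2 median of 1.72. Both of its probe sets carry a suffix, which marks probes common to several transcripts of the same gene (_a_at) or open to cross-hybridisation (_x_at), so without suffixed probe sets Dlk2 had no value. The Delta ligands Dll3 and Dll4 lay inside the olfactory range, at 0.10 and -0.01.

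In the nucleus, Rbpj, the DNA-binding partner of the cut receptor, was above 0 throughout, at 1.25, 1.59 and 1.97 as signed fold changes over 3 probe sets, with a log2 median of 0.67, short of 2-fold as deposited and 1.11 on the poly-A controls. It was named after its value was seen. Snw1, which encodes a cofactor of that complex, was above 0 at 3 of 3 probe sets, with 1 of them past 2-fold at 3.02 and a log2 median of 0.58. Crebbp, an acetyltransferase that joins the complex, had signed fold changes from -2.41 to 1.02 at 4 probe sets and a log2 median of -0.50, inside the olfactory range.

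Among the 12 corepressors, Hdac2, a histone deacetylase, had signed fold changes of 1.31, 2.38 and 2.59 and a log2 median of 1.25. Its paralog Hdac1 was at -0.07. Tle2, a Groucho-family corepressor recruited by HES proteins, had a signed fold change of -2.03 at its 1 probe set, a log2 value of -1.02 that lies at the threshold and was -0.57 on the poly-A controls. Tle1, Tle3 and Tle4, of the same family, lay inside the olfactory range by the gene median, each with a probe set outside it. The probe set of Tle2 carries the suffix _a_at, and without suffixed probe sets Tle2 had no value and Hdac2 was no longer past 2-fold.

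**Figure D4:**
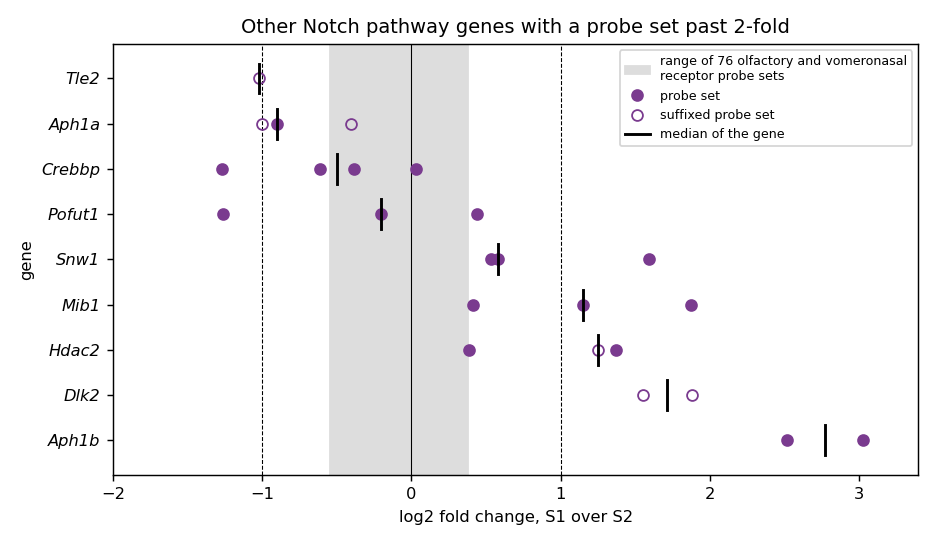
Log2 fold change of S1 over S2 (horizontal axis) for each probe set of the 9 further pathway genes with any probe set past 2-fold (rows), with open points for suffixed probe sets, a black bar at the gene median, dashed lines at 2-fold and the olfactory range in grey. The pair of probe sets of Aph1b lie at 2.52 and 3.03, and Pofut1 and Crebbp each have 1 probe set past 2-fold lower with the others closer to 0.

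Genes that modify or turn over the receptor showed no gene past 2-fold. Pofut1, which adds the fucose that a working receptor needs, had signed fold changes of -2.40, -1.15 and 1.35 at its 3 probe sets and a log2 median of -0.20. The fringe genes, which extend that sugar and change which ligands a receptor answers to, lay inside the olfactory range, with 0.03 for Lfng, 0.07 for Mfng and -0.49 for Rfng. Of the 10 inhibitors and turnover genes, Fbxw7, a ubiquitin ligase subunit that clears the receptor's intracellular part, was at 0.47. Numb, which opposes Notch at the membrane, was at -0.03, with probe sets that disagreed in sign at -0.47 and 0.40. Nrarp, a feedback inhibitor that is itself a direct target, was at 0.02. The other HES and HEY genes, Hes2, Hes3, Hes5, Hes6, Hes7 and Hey2, ran from -0.25 to 0.16, all 6 inside the olfactory range, and Hes5, whose promoter letters hold the RBPJ core at the separate positions given above, was at -0.13. Of the 9 HES and HEY genes read, 1 lay outside that range, Hes1, below it and read by 1 probe set. Over all genes 12.3% lay below the range and 13.9% above, so this count does not set Hes1 apart.

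Markers of cell types were read beside the members. Of 10 mesenchymal and fibroblast markers, 4 were at least 2-fold lower in S1 by the gene median, Cdh11 by 43.4-fold, Fap by 7.98-fold, Col3a1 by 4.69-fold and Pdgfrb by 2.23-fold. By the same measure 0 were at least 2-fold higher, beside 5.08% lower and 4.69% higher over all genes. The list was mixed, with 8 of the 10 below 0 and 2 above, Cdh2 at 0.80 and Vim at 0.09 on the log2 scale. Against the olfactory range 6 of the 10 lay below and 1 above, beside 12.3% and 13.9% of all genes. Fn1 at -0.92 and Col1a1 at -0.91 were among those below. Each had 1 probe set at least 2-fold lower, with signed fold changes of -2.09 for Fn1 and -2.82 for Col1a1. Col1a2 was at -0.11, with 1 probe set 2.32-fold higher. The 4 lower markers had the same direction as Notch1, Dll1 and Hes1, and any part of theirs in those values was not tested. Of 7 epithelial markers, 4 endothelial and 5 immune markers, 0 were past 2-fold and all lay inside the olfactory range. The epithelial markers ran from Trp63 at -0.09 to Krt8 at 0.37, with Krt5 at -0.07, and 4 of the 7 were above 0. Of 10 squamous differentiation genes, 0 were past 2-fold by the gene median and 2 lay below the olfactory range, Tgm1 at -0.90 and Ivl at -0.76, which encode a cross-linking enzyme and a protein of the cornified envelope. Ivl had 1 of its 2 probe sets at least 2-fold lower, at a signed fold change of -2.27. The table gives differences and not levels, so it does not show whether a marker or a member was expressed in either line, and fewer cells of a type and less RNA per cell cannot be told apart.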

How the data were processed

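Total RNA of the 2 cell lines, 1 sample each per the labels, was biotin-labelled and measured on Affymetrix mouse arrays. Partek Genomics Suite was the analysis software of the study, and the submitters' processing notes name MAS5. Versions, normalization and number of arrays are not given in the sources used here. The deposited table holds 1 signed linear fold change of S1 over S2 per probe set, a comparison made by the authors, with no signals, p-values or per-sample columns, so no test was run. Among the 45101 probe sets, 5797 had no gene symbol and 1280 had more than 1 symbol. Signed log2 values were taken from the fold changes, and the gene value is their median across probe sets with that symbol only. Named were all 10 members, every pathway gene with a probe set at least 2-fold changed, and selected genes of the marker lists. Other genes were added after their values were seen. The members and lists were chosen with earlier results of these data known. The steps were tested on simulated data with less scatter than the pooled SD and with shifts larger than the difference of any member. That run checks the steps and says nothing of how sure a 2-fold call is. Alternatives were thresholds of 1.5-fold and 4-fold, omission of suffixed probe sets, the largest or mean probe set, inclusion of probe sets naming several genes, and centring on all probe sets or on the poly-A controls. Gene order came from RefSeq (GRCm38.p6), which placed 18331 of 20679 genes (88.7%) and was not the build of the table, which names none. Python 3.11.15, numpy 2.4.6, pandas 2.3.3 and matplotlib 3.10.9 were used.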

Additional observations from a re-analysis of the deposited data

How the results depend on the processing

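No paired analysis was possible because each line has 1 sample and only the fold change between them was deposited, and for the same reason no replicate could be left out. Depth of signal over background is unknown and limits every value. Of the 10 members, 2 were at least 2-fold lower (Notch1 and Dll1) and 0 higher, at 2 lower and 0 higher probe sets. At 1.5-fold the counts were 3 lower and 1 higher, at 6 and 2 probe sets, and at 4-fold 0 members and 0 probe sets were lower, as the thresholds must move them. Centred on the poly-A controls, 0 members were lower and 1 higher, at 1 and 2 probe sets, and the median over the members moved from -0.25 to 0.20. By the probe set with the largest change that median was -0.52 and Notch4 was at -0.44. Of the 60 other pathway genes, 4 were higher and 1 lower. These counts were 6 and 3 at 1.5-fold, 1 and 0 at 4-fold, 2 and 0 without suffixed probe sets (52 genes left), 5 and 4 by the largest probe set, and 8 and 0 on the poly-A controls, where their median was 0.39. Shares over all genes were taken only at 2-fold, as deposited and on the poly-A controls. The counts at 1.5-fold and 4-fold, without suffixed probe sets and by the largest probe set have no such share beside them. Nor do the probe set counts on the poly-A controls, so none of these can be set against the whole array. The mean over probe sets, centring on all probe sets and the inclusion of probe sets naming several genes left the same genes past 2-fold. A gene value was counted as moved past the pooled SD between probe sets, and a list median past that SD over the root of the number of genes. Neither centring shifts a gene by as much as that SD, so this measure says nothing of stability under centring, where Notch2, Notch3, Jag2, Hey1 and Heyl changed sign on the poly-A controls.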
